A study of Mus musculus with 18 samples.

Results

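The endoplasmic reticulum (ER) stress and integrated stress response genes described here were a named list of 38 mouse genes, matched to the files by symbol. Counts for 35 of them were held in the files, which covered 46725 genes, and Hsp90b1, Pdia4 and Manf were not analysed here. RNA-seq libraries came from the gastrocnemius and the quadriceps of 9 mice of the FVB strain, all 20 weeks old, so that each mouse gave both muscles and there were 18 libraries. The 3 groups of 3 mice were WT mice with no transgene, HSA-LR mice, and HSA-LR mice given Pip6a-PMO, called treated mice below. HSA-LR mice carry a transgene of the human skeletal actin gene with an expanded CTG repeat and transcribe the repeat in skeletal muscle, so they model the muscle RNA toxicity of myotonic dystrophy type 1 and not its effects in other organs. Pip6a-PMO is an arginine-rich cell-penetrating peptide joined to a morpholino antisense oligomer directed at the CUG repeat, and it was given intravenously. The labels mark WT and HSA-LR mice as untreated although the shared protocol also mentions saline, and they do not give the dose of the sequenced mice. They list an injection volume of 160 µL for the mice of all 3 groups. Both the HSA-LR and the treated mice carry the transgene, so the comparison of treated with HSA-LR mice tested the treatment and the comparison of HSA-LR with WT mice tested the transgene.

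The unfolded protein response starts when unfolded proteins in the ER release the chaperone Hspa5 (BiP) from sensors in its membrane. The sensor Ern1 (IRE1) splices Xbp1 mRNA, the sensor Atf6 is cut to free a transcription factor, and the kinase Eif2ak3 (PERK) phosphorylates the translation factor eIF2; Xbp1 and Atf6 raise chaperones and the genes of ER-associated degradation, which exports misfolded proteins to the proteasome. Phosphorylated eIF2 lowers general translation but favours translation of Atf4, and this branch is called the integrated stress response because Eif2ak4 (GCN2) and other kinases feed into it when amino acids are short or for other reasons. Atf4 raises genes of amino acid synthesis, uptake and one-carbon metabolism, and Trib3 and Ppp1r15a feed back on the response. Skeletal muscle has a large specialized ER, the sarcoplasmic reticulum, and can release the hormones Fgf21 and Gdf15 when this response runs. These controls act in large part on protein and on splicing, and only RNA levels were measured here.

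Library totals ran from 98916844 to 143135976 counts, and the 7 fast fiber genes used to check the tissue summed to 162502 to 277813 CPM (counts scaled by library size) per library. In the quadriceps, 8 adipocyte markers summed to 1670.0 CPM in WT mouse 1, 1231 in HSA-LR mouse 1 and 1634 in HSA-LR mouse 2, against 129 to 583 CPM in the other 6 libraries. Other marker lists also separated HSA-LR from WT mice, and their part in the results below was not tested. In the HSA-LR quadriceps the 9 macrophage markers summed to 97.3 to 128 CPM against 52.8 to 74.7 in WT and 49.9 to 72.6 in treated mice, and the 4 fibroblast markers to 800.1 to 842 against 506 to 637 and 637 to 829. Lower there than in WT were 5 endothelial markers (148 to 190.0 CPM against 228 to 289 in WT and 165 to 249 in treated mice), 5 Schwann cell markers (48.0 to 69.4 against 86.7 to 111 and 60.8 to 102) and the fast fiber genes (162502 to 194194 against 207306 to 232203 and 203819 to 256686). In the HSA-LR gastrocnemius the adipocyte markers (172 to 252 CPM against 303 to 371 in WT and 211 to 549.5 in treated mice), the Schwann cell markers (92.1 to 116 against 120.0 to 139 and 83.0 to 165), the fast fiber genes (175001 to 187883 against 193638 to 228072 and 197875 to 277813) and 5 erythroid markers (508 to 679 against 781 to 3863 and 907 to 3134) lay below WT, and 3 satellite cell markers lay above (2.41 to 3.03 against 1.37 to 2.16 and 1.49 to 2.53). Slow fiber markers (7 genes) stood highest in the gastrocnemius of treated mouse 1, at 14476 CPM against 1827 to 5248 CPM in the other gastrocnemius libraries. In the quadriceps they summed to 995, 2016 and 104 CPM in treated mice 1, 2 and 3, against 184 to 523 CPM in WT and 84.7 to 189 CPM in HSA-LR mice. No marker of the 9 lists was at 0 in all libraries of a group. WT mouse 2 is labelled female and the other mice male, but 4 Y-linked genes summed to 1.14 and 1.43 CPM in the libraries of WT mouse 3 and to 133 to 188 CPM in all others, so the members called are also given without each of these mice.

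Promoter sequences of the ER stress list were read from RefSeq, as the 250 bases before and 50 bases from each annotated start on in GRCm38.p6. They matched 32 of the 35 members, and Aldh1l2, Ppp1r15b and Atf6 had no entry. The ER stress element, a paired site bound by NF-Y and Atf6, was searched on both strands as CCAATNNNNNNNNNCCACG and was found in 39 of 32851 promoters (0.119%) and in those of 6 members, Hspa5, Dnajc3, Calr, Canx, Creld2 and Pdia6. Its shorter second form, searched as ATTGG, 1 base of any kind and CCACG, was found in 12 promoters (0.0365%) and in 1 member, Herpud1. The core of the unfolded protein response element, TGACGTG, was found in 661 promoters (2.01%) and in Hspa5 alone among the members. The core of the C/EBP-ATF element through which Atf4 acts, TGATGNAA, was found in 1304 promoters (3.97%) and in 6 members, Asns, Chac1, Fgf21, Herpud1, Slc7a11 and Trib3. Matches of different motifs did not overlap in any member, and a match is a description of letters and not a site shown to be bound.

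The 5 promoters below are examples picked from the members with a match, and all but Hspa5 were called in a main test below. Hspa5 and Dnajc3 hold the ER stress element, Herpud1 holds elements of both branches, and Chac1 and Trib3 hold the Atf4 core only. The other members with a match (Calr, Canx, Creld2, Pdia6, Asns, Fgf21 and Slc7a11) were called in no main test. Edem1, called in both muscles, had no match, and a link between motif and change was not tested. Each runs 5′ to 3′ on the strand of the gene, from 250 bases before the start to 25 bases from it on, with the motif matches in capitals.
Hspa5 promoter, chr2:34771840-34772114, plus strand: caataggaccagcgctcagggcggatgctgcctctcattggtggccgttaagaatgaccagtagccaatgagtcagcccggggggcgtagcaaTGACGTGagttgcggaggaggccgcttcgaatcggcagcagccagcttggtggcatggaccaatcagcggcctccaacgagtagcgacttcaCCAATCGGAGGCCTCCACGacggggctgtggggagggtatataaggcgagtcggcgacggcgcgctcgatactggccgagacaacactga
Dnajc3 promoter, chr14:118937682-118937956, plus strand: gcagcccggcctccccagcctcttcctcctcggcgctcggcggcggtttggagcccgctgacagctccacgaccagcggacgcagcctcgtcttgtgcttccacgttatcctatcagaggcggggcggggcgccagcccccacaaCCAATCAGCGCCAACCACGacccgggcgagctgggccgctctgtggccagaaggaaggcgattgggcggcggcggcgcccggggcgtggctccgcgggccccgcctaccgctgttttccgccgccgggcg
Herpud1 promoter, chr8:94386179-94386453, plus strand: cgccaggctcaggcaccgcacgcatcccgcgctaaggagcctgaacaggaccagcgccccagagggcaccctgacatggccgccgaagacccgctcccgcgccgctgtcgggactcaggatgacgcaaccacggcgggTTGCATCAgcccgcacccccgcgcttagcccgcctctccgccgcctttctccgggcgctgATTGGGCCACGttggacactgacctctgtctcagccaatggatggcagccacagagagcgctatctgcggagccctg
Chac1 promoter, chr2:119350992-119351266, plus strand: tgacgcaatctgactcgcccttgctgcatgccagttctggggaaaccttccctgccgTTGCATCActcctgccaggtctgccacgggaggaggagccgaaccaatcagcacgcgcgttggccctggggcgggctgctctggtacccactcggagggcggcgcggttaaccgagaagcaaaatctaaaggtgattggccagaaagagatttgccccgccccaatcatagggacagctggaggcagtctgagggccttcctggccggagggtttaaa
Trib3 promoter, chr2:152344036-152344310, minus strand: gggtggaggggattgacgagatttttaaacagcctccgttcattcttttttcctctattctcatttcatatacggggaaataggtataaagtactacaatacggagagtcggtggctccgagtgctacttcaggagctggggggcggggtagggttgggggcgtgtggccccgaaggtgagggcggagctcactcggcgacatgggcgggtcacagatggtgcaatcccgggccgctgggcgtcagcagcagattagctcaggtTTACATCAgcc
In Hspa5 the first capitals are the unfolded protein response core, 157 bases before the start, and the second are the ER stress element, 65 bases before it. In Dnajc3 the ER stress element began 105 bases before the start, and in Chac1 the Atf4 core began 193 bases before it on the opposite strand. Herpud1 held the Atf4 core on the opposite strand, 112 bases before the start, and the second form of the ER stress element 52 bases before it. In Trib3 the match lay downstream, with its first base 14 bases past the start.

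Levels in WT muscle, as CPM per kilobase of exon so that genes can be compared, spanned 8006-fold over the 31 members with a usable exon length. Dnajb9, Eif2s1, Atf4 and Shmt2 were not ranked, as the exon stretches counted differed in number from those annotated. The place of Atf4 in the order below is therefore not known. In the gastrocnemius, Herpud1, an ER membrane protein of the degradation machinery, had the highest level at 73.0 ± 6.92 CPM per kilobase (SD, n = 3), followed by the lectin chaperone Calr at 56.2 ± 6.11 and Hspa5 at 39.6 ± 2.35. Chac1, which breaks down glutathione and is among the most sensitive Atf4 targets, came next at 27.5 ± 3.11. The spreads of these 4 genes did not overlap, so their order held in each WT gastrocnemius. Next among the ranked members came the transcription factors Atf5 at 18.3 ± 2.88 and Xbp1 at 17.7 ± 4.49 CPM per kilobase. They overlapped with each other and with the chaperone Canx at 17.8 ± 3.07. The sensors were lower, with Atf6 at 2.08 ± 0.172, Eif2ak4 at 1.31 ± 0.0912, Ern1 at 1.15 ± 0.0641 and Eif2ak3 at 0.793 ± 0.00372. The lowest levels were those of Trib3 (0.359 ± 0.0105), Gdf15 (0.0510 ± 0.00507), Fgf21 (0.0321 ± 0.0184) and the cystine transporter Slc7a11 (0.00912 ± 0.00710). WT quadriceps gave a like order for the leading genes, with Herpud1 at 68.7 ± 8.76, Calr at 60.5 ± 4.46 and Hspa5 at 42.5 ± 1.77 CPM per kilobase, where Herpud1 and Calr overlapped. Between the WT muscles, 0 of 34 members were called in edgeR's quasi-likelihood test at an adjusted P under 0.1 (background 0.297% of 16167 genes), with 2 at an unadjusted P under 0.05 and 0 called by DESeq2.

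In HSA-LR muscle, the chaperones Dnajb9 and Dnajc3 and the degradation factor Edem1 rose in both muscles, and Herpud1 and the Atf4 targets Chac1 and Aldh1l2 fell in both. A member was tested where its counts passed a minimum set on all genes, which left 34 members of 15625 genes in the gastrocnemius and 32 of 15574 in the quadriceps. Levels below are CPM, differences are log2 fold changes with their SE, positive where the group named first was higher, and a gene was called at an adjusted P under 0.1 over all genes tested. In the gastrocnemius of HSA-LR mice, 7 of 34 members were called against WT, 3 higher and 4 lower, where 15.5% of all genes were called, 8.60% higher and 6.94% lower. The 7 made up 20.6% of the members tested. In the quadriceps, 9 of 32 members were called (28.1%), 5 higher and 4 lower, against 20.3% of all genes, 11% higher and 9.31% lower. The counts ranged from 2 to 10 members in the gastrocnemius and from 4 to 9 in the quadriceps over fits that left out 1 mouse. Whether the shares differ from the background was not tested, and the direction was split in both muscles. The members were chosen with earlier results of these data known, so the shares are not read as an excess. The median log2 fold change over the members tested was -0.04 in the gastrocnemius and 0.11 in the quadriceps, against -0.01 and 0.01 over all genes. Whether a call held is given below for 9 fits that each left out 1 mouse and for 8 other settings, namely the 2 groups compared alone, upper-quartile normalization, DESeq2, 2 other filters on low counts, a gene's largest exon bin instead of its summed bins, and the adipocyte or the slow fiber marker sum as a covariate. As these are bulk samples, fewer cells of a type and less RNA per cell cannot be told apart. Without WT mouse 2 the members called numbered 2 in the gastrocnemius and 6 in the quadriceps, and without WT mouse 3 they numbered 6 and 8. The share of all genes called in the fits that left out 1 mouse is not given here. Shifts of these counts are therefore not read as a result about the members.

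On treatment Edem1, Dnajc3 and Ppp1r15a fell in both muscles, and Herpud1 and Aldh1l2 rose in both. Treated against HSA-LR mice, 8 of 34 members were called in the gastrocnemius (23.5%), 5 higher and 3 lower, where 10% of all genes were called, 4.49% higher and 5.53% lower. The quadriceps had 6 of 32 called (18.8%), 3 higher and 3 lower, against 13.8% of all genes, 6.54% higher and 7.22% lower. Their median log2 fold change was 0.10 in the gastrocnemius and 0.02 in the quadriceps, against -0.00 and -0.01 over all genes. Treated against WT mice, 1 of 34 members was called in the gastrocnemius (background 1.04%) and 0 of 32 in the quadriceps (background 1.41%), where 7 had an unadjusted P under 0.05 and DESeq2 called 1. Over all genes in that quadriceps comparison, 1947 had an unadjusted P under 0.05 and DESeq2 called 748. The comparisons with WT and with treated mice share the HSA-LR libraries, so a value that lies off in those libraries moves both, in opposite directions. Counts of members called moved with single mice: without HSA-LR mouse 1 or 2, 1 member was called in treated against HSA-LR gastrocnemius, and without HSA-LR mouse 3, 12 were called in the quadriceps. Whether these counts moved apart from those over all genes was not tested.

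**Figure D1:**
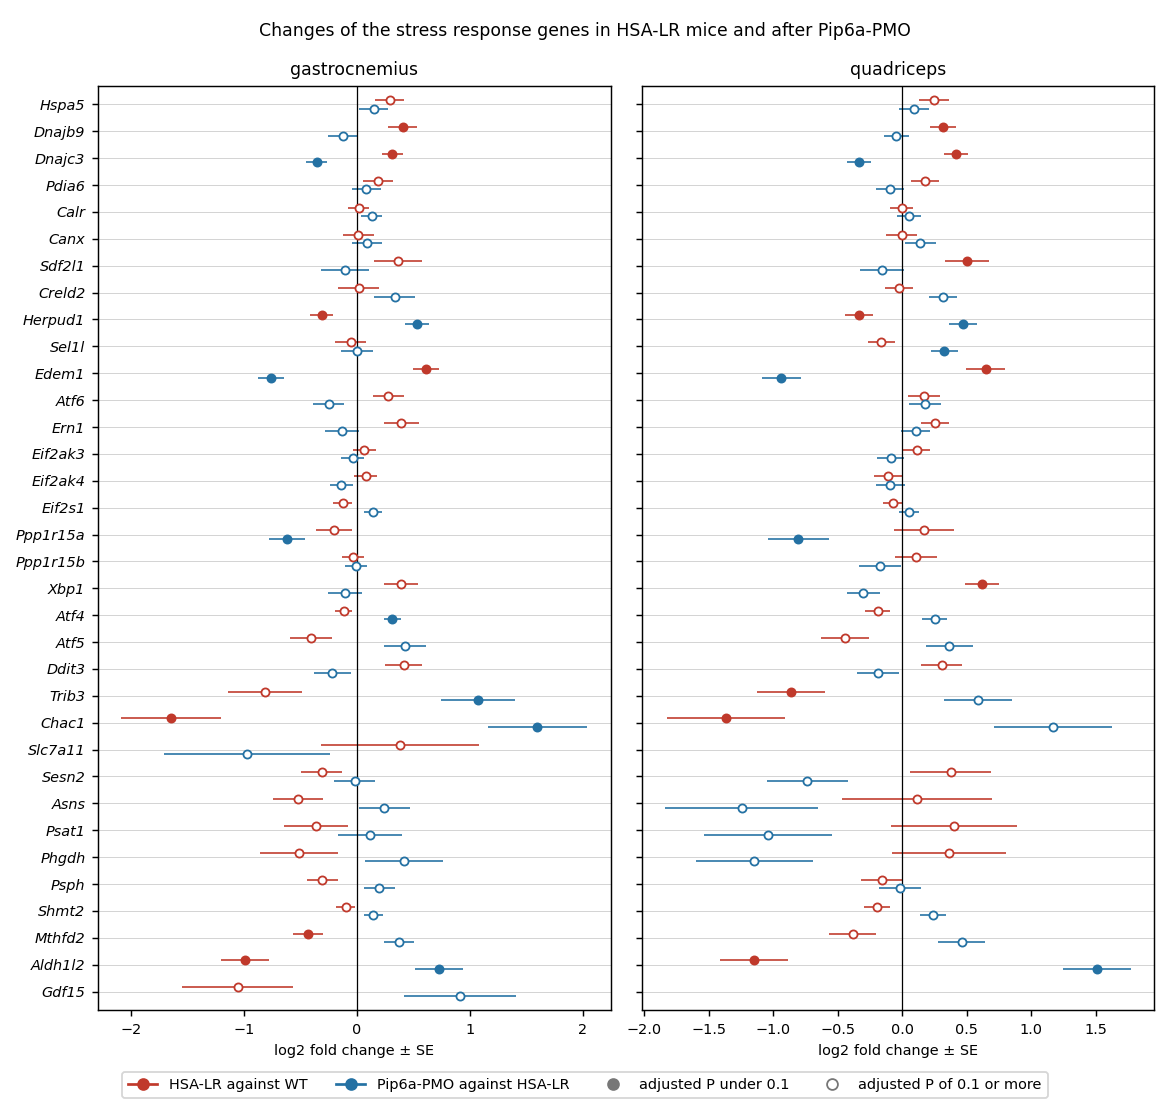
Log2 fold change with its SE on the horizontal axis for each member tested (rows), in the gastrocnemius and the quadriceps, for HSA-LR against WT (red) and Pip6a-PMO against HSA-LR (blue); filled points have an adjusted P under 0.1. Edem1 and Dnajc3 lay to the right of 0 in red and to the left in blue in both muscles, Herpud1 and Aldh1l2 lay the other way, and both series share the HSA-LR libraries.

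The muscles came from the same mice, and calls were shared between them among the members and over all genes. Of the members called in HSA-LR against WT mice, 6 were called in both muscles (Aldh1l2, Chac1, Dnajb9, Dnajc3, Edem1 and Herpud1), which is 85.7% of the gastrocnemius calls and 66.7% of the quadriceps calls, and 22 of the 32 members tested in both had the same sign (68.8%). Over all genes called, 1616 were called in both muscles, which is 66.6% and 51.0% of the calls, and the sign was the same for 75.4% of the 15264 genes tested in both. In treated against HSA-LR mice, 5 were called in both (Aldh1l2, Dnajc3, Edem1, Herpud1 and Ppp1r15a), or 62.5% and 83.3% of the calls, with the same sign in 25 of 32 (78.1%). Over all genes these shares were 52.4% and 38.3% of the calls, with 821 called in both, and 67.0% of the same sign. The difference between the muscles was tested as an interaction in edgeR, and 0 of 34 members and 0 of 16167 genes (0%) were called for either comparison. At an unadjusted P under 0.05 there were 0 members for the change in HSA-LR mice and 4 for the change on treatment, and DESeq2 called 0 members. Over all genes, 710 and 1271 had an unadjusted P under 0.05, and DESeq2 called 22 and 26.

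**Figure D2:**
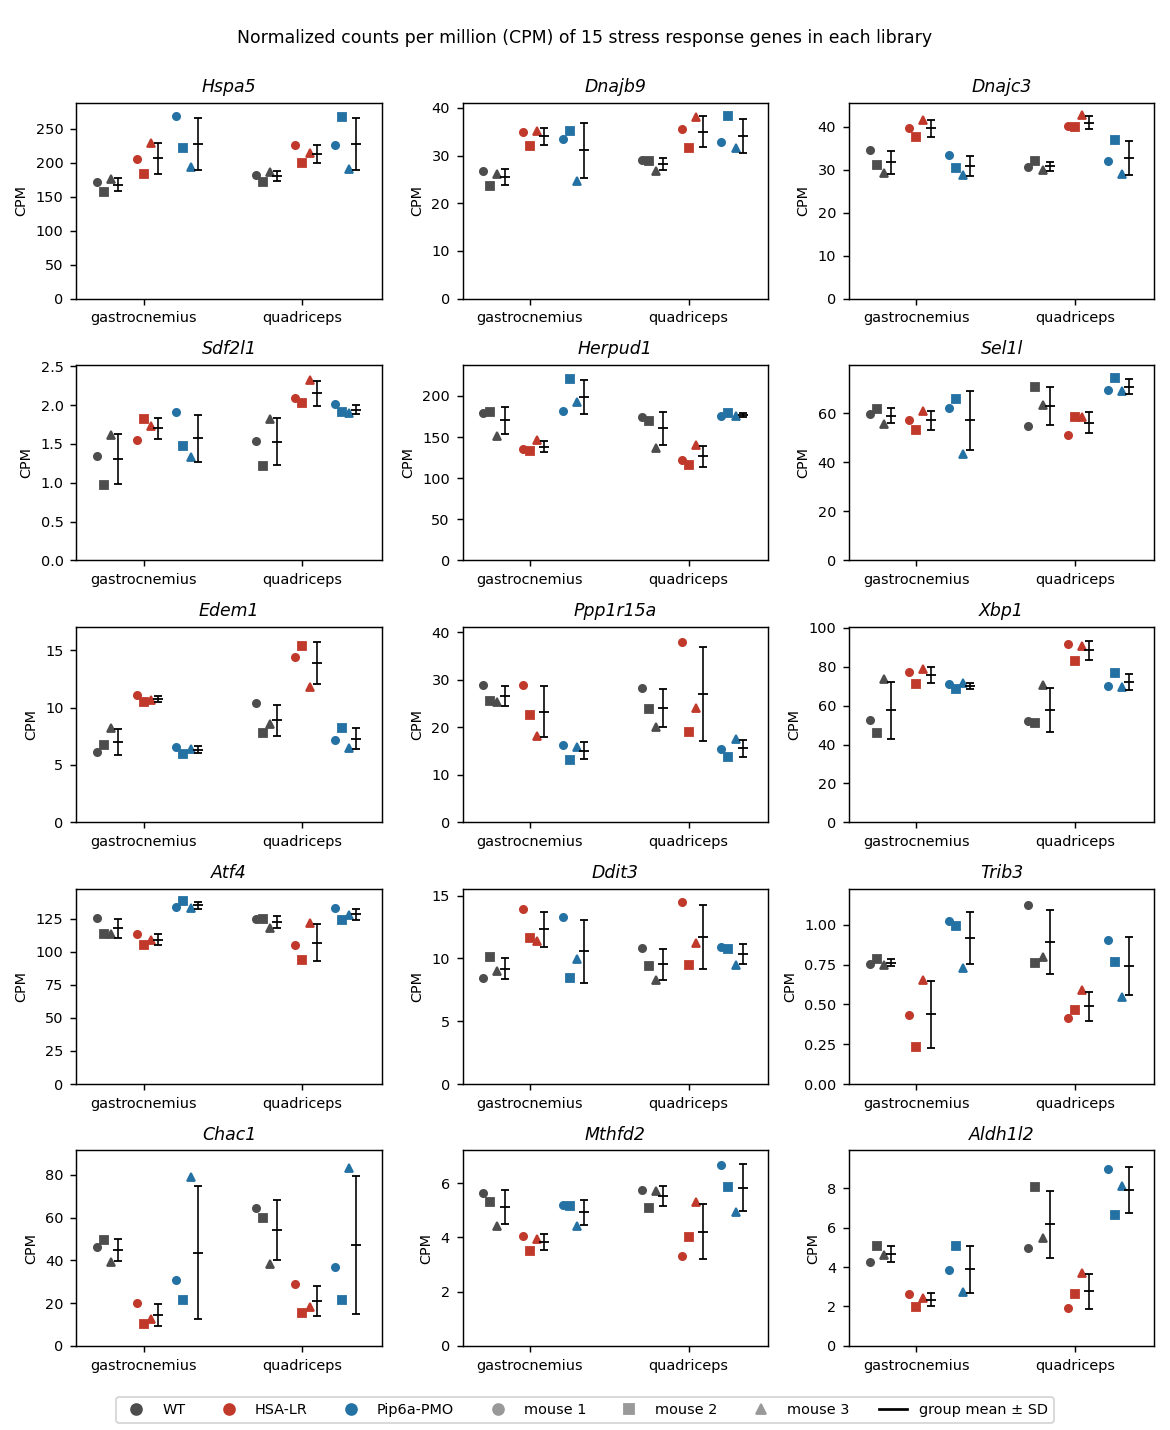
CPM on the vertical axis of 15 members in each of the 18 libraries, by muscle and group (grey WT, red HSA-LR, blue Pip6a-PMO), with the symbol giving the mouse and the black bar the group mean ± SD. The 3 HSA-LR mice sat above both other groups for Edem1 and Dnajc3 and below both for Herpud1 in the gastrocnemius, and treated mouse 3 stood alone at the top for Chac1.

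Of the 8 ER chaperones and folding enzymes measured, 2 rose in the HSA-LR gastrocnemius and 3 in the HSA-LR quadriceps, and 0 fell, where 8.60% and 11% of all genes were called higher. Their median log2 fold change against WT was 0.24 and 0.21. Dnajc3 (p58IPK), a co-chaperone of Hspa5 that also restrains Eif2ak3, read 34.7, 31.1 and 29.3 CPM in the gastrocnemius of WT mice, 39.8, 37.6 and 41.5 in HSA-LR mice and 33.4, 30.5 and 28.7 in treated mice. In the quadriceps Dnajc3 read 30.5, 32.0 and 29.9 CPM in WT, 40.1, 39.9 and 42.6 in HSA-LR and 32.1, 36.9 and 29.0 in treated mice. All HSA-LR values lay above all WT and all treated values in both muscles, and treated mice overlapped with WT mice. The difference from WT was 0.31 ± 0.09 (SE; adjusted P = 0.0626) in the gastrocnemius and 0.41 ± 0.09 (SE; adjusted P = 0.0194) in the quadriceps. On treatment Dnajc3 fell, with -0.35 ± 0.09 (SE; adjusted P = 0.0604) and -0.33 ± 0.09 (SE; adjusted P = 0.0634). The rise in the quadriceps was called in all 9 fits that left out 1 mouse, but with the largest exon bin of the gene in place of the sum over its bins none of the 4 calls held (adjusted P of 0.315 to 0.967). The rise in the gastrocnemius was also lost without WT mouse 2 or 3 or any HSA-LR mouse (adjusted P up to 0.202), and with the adipocyte marker covariate. The fall on treatment was lost without WT mouse 2, any HSA-LR mouse or Pip6a-PMO mouse 2 (adjusted P up to 0.181) and with the adipocyte marker covariate in the gastrocnemius, and without any HSA-LR mouse or Pip6a-PMO mouse 1 or 3 (adjusted P up to 0.176) in the quadriceps.

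Dnajb9 (ERdj4), a co-chaperone of Hspa5 that also aids ER-associated degradation, read 26.7, 23.6 and 26.2 CPM in WT gastrocnemius, 35.0, 32.0 and 35.2 in HSA-LR and 33.5, 35.2 and 24.6 in treated. Quadriceps levels of Dnajb9 were 29.1, 28.8 and 26.7 CPM in WT, 35.5, 31.5 and 38 in HSA-LR and 32.8, 38.2 and 31.5 in treated mice. HSA-LR values lay above WT values without overlap in both muscles, whereas treated mice overlapped with HSA-LR mice. Dnajb9 rose in HSA-LR mice by a log2 fold change of 0.41 ± 0.13 (SE; adjusted P = 0.0770) in the gastrocnemius and 0.32 ± 0.10 (SE; adjusted P = 0.0683) in the quadriceps. No call was made on treatment, with -0.12 (adjusted P = 0.605) and -0.04 (adjusted P = 0.808). The gastrocnemius call was lost without any WT mouse or any HSA-LR mouse (adjusted P up to 0.218), and with the adipocyte marker covariate (adjusted P up to 0.340). The quadriceps call was lost without any WT mouse, HSA-LR mouse 1 or 3 or Pip6a-PMO mouse 1 (adjusted P up to 0.194), and with a minimum of 1 count in any library (adjusted P up to 0.120).

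Sdf2l1, a part of the ER chaperone complexes around Hspa5, was low, at 1.54, 1.22 and 1.82 CPM in WT quadriceps, 2.10, 2.03 and 2.33 in HSA-LR and 2.01, 1.92 and 1.90 in treated mice. All 3 HSA-LR values lay above both other groups. Sdf2l1 rose in the HSA-LR quadriceps, with 0.50 ± 0.17 (SE; adjusted P = 0.0853), and the call was lost without WT mouse 1 or 2, any HSA-LR mouse or Pip6a-PMO mouse 1 or 2 (adjusted P up to 0.192), and in a fit of the 2 groups alone or with a minimum of 1 count in any library (adjusted P up to 0.150). In the gastrocnemius the groups overlapped (WT 0.976 to 1.62 CPM, HSA-LR 1.55 to 1.82) and Sdf2l1 was not called, with 0.37 (adjusted P = 0.335). On treatment Sdf2l1 gave -0.10 (adjusted P = 0.817) in the gastrocnemius and -0.16 (adjusted P = 0.581) in the quadriceps.

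Hspa5 itself, the chief chaperone of the pathway and the usual marker of ER stress, read 171, 156 and 175 CPM in WT gastrocnemius, 205, 184 and 229 in HSA-LR and 268, 221 and 193 in treated mice. Quadriceps values for Hspa5 were 182, 172 and 186 CPM in WT, 225, 199 and 214 in HSA-LR and 226, 267 and 191 in treated mice. WT mice lay below both transgenic groups in both muscles without overlap, and the treated mice spread more widely than the others. Hspa5 was not called in the main test: HSA-LR against WT gave 0.29 ± 0.13 (SE; adjusted P = 0.195) and 0.25 ± 0.12 (SE; adjusted P = 0.200), and treated against HSA-LR gave 0.15 (adjusted P = 0.533) and 0.09 (adjusted P = 0.650). Treated against WT mice gave 0.44 ± 0.13 (SE; adjusted P = 0.238) in the gastrocnemius and 0.34 ± 0.12 (SE; adjusted P = 0.281) in the quadriceps. With the slow fiber marker covariate Hspa5 was called higher in HSA-LR than in WT mice in both muscles, and in the gastrocnemius also in the fit of the 2 groups alone (adjusted P down to 0.0568 there and 0.0244 in the quadriceps). It was also called in the gastrocnemius in 1 of the 9 fits that left out 1 mouse (adjusted P = 0.0936). The other 4 members of this group, Pdia6, Calr, Canx and Creld2, were called in no comparison, with log2 fold changes between -0.10 and 0.33 over the comparisons of HSA-LR with WT and of treated with HSA-LR mice.

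The 3 members of ER-associated degradation did not move together, and Edem1 was the 1 member called in all 4 comparisons of HSA-LR mice in each fit that left out 1 mouse. Edem1 (chr6:108828641-108859356, plus strand, GRCm38), a lectin-like protein that hands misfolded glycoproteins to degradation and is a textbook target of spliced Xbp1, read 6.09, 6.70 and 8.22 CPM in WT gastrocnemius, 11.1, 10.5 and 10.7 in HSA-LR and 6.56, 5.98 and 6.43 in treated mice. In the quadriceps Edem1 read 10.4, 7.76 and 8.53 CPM in WT, 14.5, 15.4 and 11.8 in HSA-LR and 7.17, 8.26 and 6.47 in treated mice. Every HSA-LR mouse lay above every WT and every treated mouse in both muscles, and treated mice overlapped with WT mice. Edem1 rose in HSA-LR mice by 0.61 ± 0.12 (SE; adjusted P = 0.0117) in the gastrocnemius and 0.65 ± 0.15 (SE; adjusted P = 0.0222) in the quadriceps, a fold of 1.53 and 1.57. Treatment lowered Edem1 with a log2 fold change of -0.76 ± 0.12 (SE; adjusted P = 0.00985) and -0.94 ± 0.15 (SE; adjusted P = 0.0108). All 4 calls held in each of the 9 fits that left out 1 mouse, with adjusted P up to 0.0833. With the largest exon bin alone, the fall on treatment was called and the rise against WT was not (adjusted P = 0.215 in the gastrocnemius and 0.133 in the quadriceps). Against WT, treated mice gave -0.15 (adjusted P = 0.719) and -0.29 (adjusted P = 0.463).

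Herpud1 (chr8:94386438-94395377, plus strand), whose protein organizes the degradation complex and whose promoter holds elements of both branches, went the other way. Herpud1 levels in the gastrocnemius were 179, 180.0 and 152 CPM in WT, 135, 133 and 146 in HSA-LR and 182, 221 and 193 in treated mice. Those in the quadriceps were 174, 169.8 and 137 CPM in WT, 122, 117 and 140.4 in HSA-LR and 175, 179 and 175 in treated mice. In the gastrocnemius all 3 HSA-LR mice lay below both other groups, and in the quadriceps HSA-LR mouse 3 lay just above WT mouse 3. Herpud1 fell in HSA-LR mice, with -0.31 ± 0.10 (SE; adjusted P = 0.0965) and -0.34 ± 0.11 (SE; adjusted P = 0.0718), and rose on treatment, with 0.53 ± 0.10 (SE; adjusted P = 0.0242) and 0.47 ± 0.11 (SE; adjusted P = 0.0369). The fall in the gastrocnemius was lost without WT mouse 1 or 2 or any HSA-LR mouse (adjusted P up to 0.248), and with a minimum of 1 count in any library, with a minimum of 10 counts in every library, with the largest exon bin of the gene or with the adipocyte marker covariate (adjusted P up to 0.146). In the quadriceps the fall was lost without WT mouse 1 or 2, HSA-LR mouse 1 or 2 or Pip6a-PMO mouse 1 (adjusted P up to 0.193), and in a fit of the 2 groups alone (adjusted P up to 0.127). The rise on treatment was lost without HSA-LR mouse 1 or 2 (adjusted P up to 0.106) in the gastrocnemius and without HSA-LR mouse 1 or 2 or Pip6a-PMO mouse 1 (adjusted P up to 0.131) in the quadriceps, and kept its call in the 8 other settings tried.

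Sel1l, the scaffold of the same membrane complex, read 54.9, 70.7 and 63.6 CPM in WT quadriceps, 51.3, 58.7 and 58.6 in HSA-LR and 69.4, 74.4 and 69.0 in treated mice. Treated mice lay above HSA-LR mice without overlap, and WT mice overlapped with both. Sel1l rose on treatment in the quadriceps, with 0.33 ± 0.10 (SE; adjusted P = 0.0891), a call lost without WT mouse 3, HSA-LR mouse 1 or 2 or any Pip6a-PMO mouse (adjusted P up to 0.257), and with upper-quartile normalization, with a minimum of 1 count in any library, with the adipocyte marker covariate or with the slow fiber marker covariate (adjusted P up to 0.244). In the gastrocnemius Sel1l was not called and gave 0.00 (adjusted P = 0.991), with treated mouse 3 at the lowest level of all 9 libraries (43.4 CPM). HSA-LR against WT gave -0.06 (adjusted P = 0.850) and -0.16 (adjusted P = 0.358).

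None of the 4 sensors was called by edgeR's quasi-likelihood test with all 3 groups in the fit. Ern1 (IRE1) read 8.91, 9.96 and 9.44 CPM in WT gastrocnemius, 12.8, 12.4 and 12.2 in HSA-LR and 12.6, 13.1 and 8.34 in treated mice, with HSA-LR above WT without overlap and a difference of 0.40 ± 0.15 (SE; adjusted P = 0.140). Ern1 was called there in the fit of the 2 groups alone, by DESeq2 and with the slow fiber marker covariate (adjusted P down to 0.0157). It was also called there in 1 of the 9 fits that left out 1 mouse (adjusted P = 0.00932). Quadriceps Ern1 was 9.18, 10.6 and 9.76 CPM in WT, 10.5, 12.3 and 12.2 in HSA-LR and 12.5, 14.1 and 11.4 in treated mice, with 0.25 (adjusted P = 0.174) for HSA-LR against WT. WT mice thus had the lowest Ern1 values in the quadriceps, but for HSA-LR mouse 1, which lay just below WT mouse 2. In the gastrocnemius treated mouse 3 lay below all WT mice. Atf6 read 19.4, 20.7 and 17.5 CPM in WT gastrocnemius, 22.2, 22.0 and 26.0 in HSA-LR and 21.8, 21.4 and 15.6 in treated mice, and gave 0.28 (adjusted P = 0.241) against WT and -0.25 (adjusted P = 0.317) on treatment. Against WT it was called in the fit of the 2 groups alone (adjusted P = 0.0950) and in 1 of the 9 fits that left out 1 mouse (adjusted P = 0.0699). In the quadriceps Atf6 read 18.7, 22.7 and 18.4 CPM in WT, 19.4, 24.6 and 23.0 in HSA-LR and 25.1, 28.0 and 23.3 in treated mice, with 0.17 (adjusted P = 0.422) and 0.18 (adjusted P = 0.384). In the quadriceps treated mice lay above WT mice for Atf6 and HSA-LR mice overlapped with both, and in the gastrocnemius HSA-LR mice lay above both others. Eif2ak3 (PERK) was the flattest of them, at 4.75 to 4.80 CPM in WT gastrocnemius, 4.65 to 5.35 in HSA-LR and 4.69 to 5.18 in treated mice, with 0.07 (adjusted P = 0.733) against WT. Its quadriceps levels were 4.45 to 4.80 CPM in WT, 4.67 to 5.47 in HSA-LR and 4.55 to 4.78 in treated mice, with 0.11 (adjusted P = 0.551). The amino acid sensor Eif2ak4 (GCN2) had log2 fold changes from -0.14 to 0.08 over the same comparisons.

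Of eIF2 and its phosphatase, Ppp1r15a (GADD34), the stress-induced subunit that brings phosphatase to eIF2, was the 1 member called between treated and WT mice. Ppp1r15a read 29.0, 25.6 and 25.2 CPM in WT gastrocnemius, 28.9, 22.7 and 18.2 in HSA-LR and 16.3, 13.1 and 15.9 in treated mice. The quadriceps gave 28.2, 23.8 and 20.1 CPM in WT, 37.9, 19.0 and 23.9 in HSA-LR and 15.5, 13.6 and 17.4 in treated mice. Treated mice lay below all WT and all HSA-LR mice in both muscles, whereas WT and HSA-LR mice overlapped. Against HSA-LR mice it fell on treatment with a log2 fold change of -0.62 ± 0.16 (SE; adjusted P = 0.0614) in the gastrocnemius and -0.80 ± 0.24 (SE; adjusted P = 0.0757) in the quadriceps. Against WT mice the treated gastrocnemius was lower, with -0.82 ± 0.16 (SE; adjusted P = 0.0795), and the quadriceps gave -0.63 ± 0.24 (SE; adjusted P = 0.323), which was not called. HSA-LR against WT gave -0.20 (adjusted P = 0.484) and 0.17 (adjusted P = 0.704). Treated against HSA-LR, the gastrocnemius call was lost without HSA-LR mouse 1 or 2 or Pip6a-PMO mouse 2 (adjusted P up to 0.197), and with the adipocyte marker covariate (adjusted P up to 0.109), and the quadriceps call was lost without HSA-LR mouse 1 or any Pip6a-PMO mouse (adjusted P up to 0.205), and with the adipocyte marker covariate or with the slow fiber marker covariate (adjusted P up to 0.250). Treated against WT, the gastrocnemius call was lost without any WT mouse, HSA-LR mouse 2 or any Pip6a-PMO mouse (adjusted P up to 0.221). Ppp1r15b, the constant counterpart of Ppp1r15a, and Eif2s1, the phosphorylated subunit of eIF2, were not called, with log2 fold changes from -0.17 to 0.14 over all 6 comparisons.

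Among the 4 transcription factors, Xbp1 rose in the HSA-LR quadriceps and Atf4 rose on treatment in the gastrocnemius. Xbp1 read 51.9, 50.9 and 70.8 CPM in WT quadriceps, 91.9, 83.1 and 90.7 in HSA-LR and 70.2, 77.0 and 69.4 in treated mice, so HSA-LR mice lay above both other groups without overlap. The rise of Xbp1 against WT was 0.62 ± 0.13 (SE; adjusted P = 0.0146), called in each of the 9 fits that left out 1 mouse (adjusted P up to 0.0572) and in the 8 other settings. On treatment Xbp1 gave -0.30 ± 0.13 (SE; adjusted P = 0.173) in the quadriceps, which was not called in the main test. It was called in the fit of the 2 groups alone (adjusted P = 0.0680) and in 1 of the 9 fits that left out 1 mouse (adjusted P = 0.0551). In the gastrocnemius Xbp1 read 52.9, 46.0 and 74.0 CPM in WT, 77.5, 71.3 and 78.8 in HSA-LR and 70.9, 68.6 and 71.6 in treated mice, and was not called against WT in the main test, with 0.39 (adjusted P = 0.140). It was called there with the largest exon bin (adjusted P = 0.0695) and in 1 of the 9 fits that left out 1 mouse (adjusted P = 0.00635). WT mouse 3 had the highest WT value of Xbp1 in both muscles and overlapped with HSA-LR mice in the gastrocnemius. Counts of whole exon bins do not separate spliced from unspliced Xbp1 mRNA, so Ern1 activity was not measured.

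Atf4 mRNA read 126, 113 and 114 CPM in WT gastrocnemius, 113, 105 and 109 in HSA-LR and 134, 138 and 133 in treated mice. In the quadriceps Atf4 read 125, 125 and 118 CPM in WT, 105, 93.6 and 122 in HSA-LR and 133, 124 and 128 in treated mice. Treated mice lay above all HSA-LR mice in both muscles, and in the gastrocnemius also above all WT mice. Atf4 rose on treatment in the gastrocnemius, with 0.32 ± 0.08 (SE; adjusted P = 0.0468), and gave 0.25 ± 0.10 (SE; adjusted P = 0.147) in the quadriceps, which was not called. The call was lost without any HSA-LR mouse or Pip6a-PMO mouse 2 (adjusted P up to 0.18), and with the largest exon bin of the gene (adjusted P up to 0.110). HSA-LR against WT was not called, with -0.12 (adjusted P = 0.380) and -0.19 (adjusted P = 0.246). Ddit3 (CHOP), the factor linked to cell death under lasting ER stress, read 8.46, 10.1 and 9.01 CPM in WT gastrocnemius, 13.9, 11.6 and 11.4 in HSA-LR and 13.3, 8.40 and 9.95 in treated mice. HSA-LR mice lay above WT mice without overlap there, but Ddit3 was not called in the main test, with 0.41 ± 0.16 (SE; adjusted P = 0.152). It was called in the fit of the 2 groups alone, with the largest exon bin and with the slow fiber marker covariate (adjusted P down to 0.0320). One mouse left out gave a call in 1 of 9 fits (adjusted P = 0.0827). In the quadriceps Ddit3 read 10.8, 9.42 and 8.32 CPM in WT, 14.5, 9.43 and 11.2 in HSA-LR and 10.9, 10.7 and 9.47 in treated mice, with 0.30 (adjusted P = 0.258) against WT and -0.19 (adjusted P = 0.492) on treatment. Atf5, a mitochondrial and amino acid stress factor, gave -0.41 (adjusted P = 0.210) and -0.44 (adjusted P = 0.153) against WT and 0.42 (adjusted P = 0.223) and 0.37 (adjusted P = 0.241) on treatment.

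Of the members grouped as targets of the integrated stress response, 1 of 4 tested was called lower and 0 higher in the HSA-LR gastrocnemius, and 2 of 3 lower and 0 higher in the quadriceps, against the 6.94% and 9.31% of all genes called lower. Chac1 (chr2:119351229-119354381, plus strand) had the largest change of any member called, at 46.0, 49.5 and 39.5 CPM in WT gastrocnemius, 20.3, 10.4 and 12.7 in HSA-LR and 30.6, 21.3 and 78.9 in treated mice. The quadriceps of the same mice gave 64.3, 59.9 and 38.1 CPM in WT, 29.1, 15.6 and 18.1 in HSA-LR and 36.7, 21.5 and 83.4 in treated mice. HSA-LR mice lay below WT mice without overlap in both muscles, and treated mouse 3 stood above every other mouse in both, while treated mouse 2 lay within the HSA-LR range of the quadriceps. Chac1 fell in HSA-LR mice with a log2 fold change of -1.64 ± 0.44 (SE; adjusted P = 0.0453) in the gastrocnemius and -1.36 ± 0.46 (SE; adjusted P = 0.0845) in the quadriceps, to a fold of 0.320 and 0.388 of WT. Chac1 rose on treatment in the gastrocnemius, with 1.60 ± 0.44 (SE; adjusted P = 0.0706), and gave 1.17 ± 0.46 (SE; adjusted P = 0.149) in the quadriceps, which was not called. The fall was lost without WT mouse 2 or HSA-LR mouse 2 or 3 (adjusted P up to 0.154), and with the adipocyte marker covariate (adjusted P up to 0.226) in the gastrocnemius, where that covariate took the log2 fold change to -0.96, and without WT mouse 1 or 2, HSA-LR mouse 2 or 3 or Pip6a-PMO mouse 1 (adjusted P up to 0.223) in the quadriceps. The rise on treatment was lost without WT mouse 2, any HSA-LR mouse or Pip6a-PMO mouse 3 (adjusted P up to 0.224), and in a fit of the 2 groups alone or with the adipocyte marker covariate (adjusted P up to 0.242). Its log2 fold change was 0.83 without treated mouse 3 and 0.91 with the adipocyte marker covariate.

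Trib3, a pseudokinase that Atf4 and Ddit3 induce and that restrains both, was low, with 92, 109 and 107 counts in WT gastrocnemius libraries. Its levels were 0.754, 0.788 and 0.746 CPM in WT gastrocnemius, 0.432, 0.231 and 0.651 in HSA-LR and 1.03, 0.993 and 0.727 in treated mice. The quadriceps gave 1.12, 0.762 and 0.795 CPM in WT, 0.412, 0.465 and 0.591 in HSA-LR and 0.907, 0.768 and 0.547 in treated mice. HSA-LR mice lay below WT mice without overlap in both muscles, and below treated mice in the gastrocnemius. Trib3 fell in the HSA-LR quadriceps, with -0.86 ± 0.26 (SE; adjusted P = 0.0623), and rose on treatment in the gastrocnemius, with 1.07 ± 0.33 (SE; adjusted P = 0.0952). The other two comparisons missed the threshold, with -0.81 (adjusted P = 0.159) for HSA-LR against WT gastrocnemius and 0.59 (adjusted P = 0.198) for treated against HSA-LR quadriceps. The quadriceps call was lost without WT mouse 1 or HSA-LR mouse 1 or 2 (adjusted P up to 0.179), and with the largest exon bin of the gene or with the slow fiber marker covariate (adjusted P up to 0.391), and the gastrocnemius call was lost without any WT mouse, HSA-LR mouse 1 or 2 or Pip6a-PMO mouse 1 or 2 (adjusted P up to 0.243), and in a fit of the 2 groups alone, with the largest exon bin of the gene or with the slow fiber marker covariate (adjusted P up to 0.145).

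Slc7a11, which imports cystine, was tested in the gastrocnemius alone, with 14, 32 and 5 counts in WT, 28, 31 and 5 in HSA-LR and 9, 8 and 12 in treated mice. It was not called there, with 0.38 (adjusted P = 0.788) against WT and -0.97 (adjusted P = 0.475) on treatment. In the quadriceps its counts were 5, 10 and 3 in WT, 6, 5 and 1 in HSA-LR and 5, 3 and 5 in treated mice, too few to test. Sesn2, an inhibitor of mTORC1 signalling, gave -0.31 (adjusted P = 0.335) against WT in the gastrocnemius and 0.38 (adjusted P = 0.491) in the quadriceps, and its quadriceps values are described with the amino acid enzymes below.

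Among the 7 enzymes of serine, asparagine and one-carbon metabolism, 2 fell in the HSA-LR gastrocnemius and 1 in the quadriceps, and 0 rose, where 6.94% and 9.31% of all genes were called lower. Aldh1l2 (chr10:83487450-83534140, minus strand), the mitochondrial enzyme that turns formyl-tetrahydrofolate into tetrahydrofolate and NADPH, carried the most stable of these changes. Its levels in the gastrocnemius were 4.28, 5.07 and 4.60 CPM in WT, 2.63, 1.98 and 2.45 in HSA-LR and 3.84, 5.08 and 2.71 in treated mice. In the quadriceps Aldh1l2 read 4.95, 8.08 and 5.45 CPM in WT, 1.94, 2.64 and 3.70 in HSA-LR and 8.98, 6.67 and 8.13 in treated mice. Every HSA-LR mouse lay below every WT and every treated mouse in both muscles, and treated mice overlapped with WT mice. Aldh1l2 fell in HSA-LR mice with a log2 fold change of -0.99 ± 0.21 (SE; adjusted P = 0.0196) and -1.15 ± 0.26 (SE; adjusted P = 0.0215) on the log2 scale, to a fold of 0.504 and 0.451 of WT in the gastrocnemius and the quadriceps. It rose on treatment, with 0.73 ± 0.21 (SE; adjusted P = 0.0855) in the gastrocnemius and 1.51 ± 0.26 (SE; adjusted P = 0.0154) in the quadriceps. Both falls and the rise in the quadriceps held in all 9 fits that left out 1 mouse and in the 8 other settings, with adjusted P up to 0.0790. The rise in the gastrocnemius was lost without WT mouse 1 or 2, any HSA-LR mouse or Pip6a-PMO mouse 1 or 2 (adjusted P up to 0.255), and in a fit of the 2 groups alone or with the slow fiber marker covariate (adjusted P up to 0.133).

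Mthfd2, the mitochondrial enzyme one step before Aldh1l2 in the folate cycle, read 5.64, 5.30 and 4.43 CPM in WT gastrocnemius, 4.04, 3.50 and 3.93 in HSA-LR and 5.21, 5.16 and 4.40 in treated mice. HSA-LR mice lay below both other groups without overlap. Mthfd2 fell in the HSA-LR gastrocnemius, with -0.43 ± 0.13 (SE; adjusted P = 0.0689), and gave 0.37 (adjusted P = 0.136) on treatment. That call was lost without WT mouse 1 or 2 or any HSA-LR mouse (adjusted P up to 0.203), and with a minimum of 1 count in any library or with the largest exon bin of the gene (adjusted P up to 0.341). In the quadriceps Mthfd2 read 5.73, 5.09 and 5.72 CPM in WT, 3.3, 4.0 and 5.30 in HSA-LR and 6.67, 5.85 and 4.95 in treated mice and was not called, with -0.38 (adjusted P = 0.210) against WT and 0.46 (adjusted P = 0.155) on treatment. Shmt2, which feeds the same cycle from serine, gave -0.10 (adjusted P = 0.504) and -0.19 (adjusted P = 0.242) against WT, and Psph, the last enzyme of serine synthesis, gave -0.31 (adjusted P = 0.203) and -0.16 (adjusted P = 0.596).

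Asns, Psat1, Phgdh and Sesn2 had wide spreads in the quadriceps that followed single libraries and not groups, and they were described further after their values were seen. Asns, which makes asparagine, read 9.61, 3.49 and 4.74 CPM in WT, 5.90, 11.6 and 1.76 in HSA-LR and 2.70, 3.14 and 2.34 in treated quadriceps. Psat1, the second enzyme of serine synthesis, read 3.92, 1.64 and 1.88 CPM in WT, 4.78, 3.83 and 1.20 in HSA-LR and 1.73, 1.86 and 1.20 in treated mice, and Phgdh, the first, read 6.80, 3.78 and 2.62 CPM in WT, 7.91, 6.27 and 2.75 in HSA-LR and 3.38, 2.64 and 1.67 in treated mice. Sesn2 read 4.66, 3.09 and 2.37 CPM in WT, 5.59, 4.95 and 2.54 in HSA-LR and 2.47, 2.89 and 2.55 in treated quadriceps. For all 4 genes the 3 highest libraries were those of WT mouse 1 and HSA-LR mice 1 and 2, the same 3 that stood highest for the adipocyte markers. Treated against HSA-LR quadriceps gave -1.24 ± 0.59 for Asns, -1.04 ± 0.49 for Psat1, -1.15 ± 0.45 for Phgdh and -0.73 ± 0.31 for Sesn2, and none was called by edgeR with all 9 libraries. DESeq2 called Phgdh (adjusted P = 0.0483), and each of the 4 genes was called in 1 of the 9 fits that left out 1 mouse. With the adipocyte marker sum as a covariate, added after the data were seen, these became -0.03 ± 0.22, -0.14 ± 0.18, -0.49 ± 0.27 and -0.26 ± 0.19. HSA-LR against WT quadriceps gave 0.12 ± 0.58, 0.40 ± 0.49, 0.36 ± 0.44 and 0.38 ± 0.31 in the same order of genes, and with the covariate 0.07 ± 0.19, 0.44 ± 0.17, 0.44 ± 0.25 and 0.42 ± 0.17, so the estimate was larger with the covariate for all but Asns, and none was called. In the gastrocnemius, where the marker sum ran from 172 to 549.5 CPM, HSA-LR against WT gave -0.52 (adjusted P = 0.179) for Asns, -0.36 (adjusted P = 0.477) for Psat1 and -0.51 (adjusted P = 0.407) for Phgdh.

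**Figure D3:**
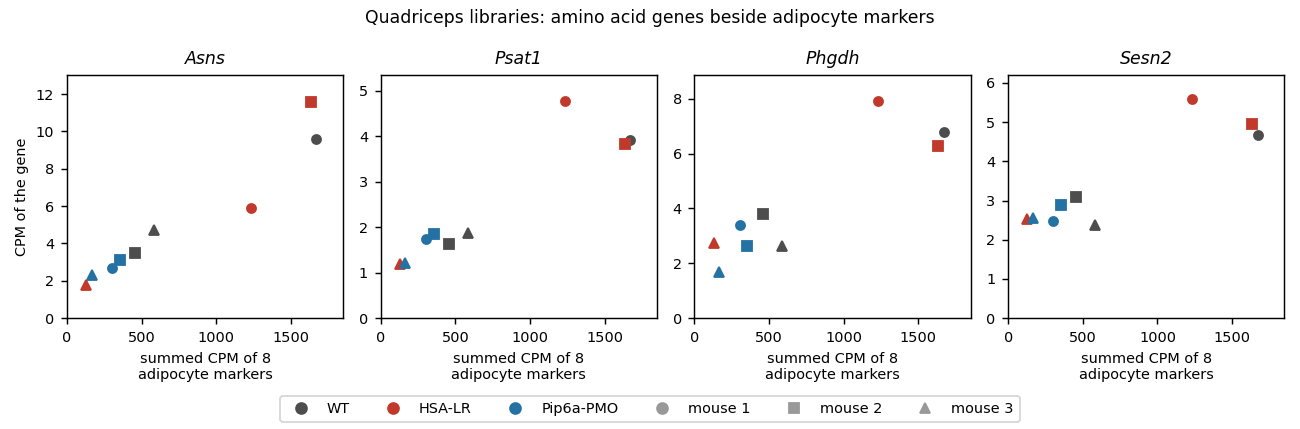
CPM of Asns, Psat1, Phgdh and Sesn2 (vertical axes) against the summed CPM of 8 adipocyte markers (horizontal axes) in the 9 quadriceps libraries, coloured by group (grey WT, red HSA-LR, blue Pip6a-PMO) with the symbol giving the mouse. In each panel WT mouse 1 and HSA-LR mice 1 and 2 lie apart from the other 6 libraries, at the upper right.

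The muscle stress hormones stayed near the limit of detection. Fgf21 had 6, 2 and 4 counts in WT gastrocnemius, 0, 1 and 0 in HSA-LR and 0, 1 and 6 in treated mice, and in the quadriceps 5, 2 and 0 in WT, 3, 3 and 5 in HSA-LR and 10, 2 and 1 in treated mice. It was too low to test in either muscle, and a difference was not detectable at this depth. Gdf15 had 12, 14 and 12 counts in WT gastrocnemius, 5, 6 and 6 in HSA-LR and 19, 8 and 4 in treated mice. The 3 HSA-LR mice lay below the 3 WT mice for Gdf15, but it was not called, with -1.06 ± 0.49 (SE; adjusted P = 0.215) against WT and 0.92 ± 0.50 (SE; adjusted P = 0.318) on treatment. Gdf15 passed the count minimum through the WT libraries and treated mouse 1. Its HSA-LR counts were few, so these values are not read as a difference. In the quadriceps Gdf15 had 6, 3 and 11 counts in WT, 6, 2 and 7 in HSA-LR and 6, 7 and 7 in treated mice and was too low to test.

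Exon use was a readout separate from gene level. A bin is a stretch between the ends of annotated exons, and each was tested against the other bins of its gene with edgeR's diffSpliceDGE. Of 428 member bins tested in the gastrocnemius, 3 were called in HSA-LR against WT mice (background 0.819% of 172719 bins), 2 were called on treatment (0.309%) and 0 between treated and WT mice (0.0654%), with 6 bins at an unadjusted P under 0.05 in the latter and 0 called by limma voom. Of 444 in the quadriceps, 3 were called in HSA-LR against WT (background 0.284% of 172858), 3 on treatment (0.168%) and 0 between treated and WT mice (0.0353%), with 2 at an unadjusted P under 0.05 in the latter and 0 called by limma voom. Bin 6 of Eif2ak3 was among those called in the quadriceps against WT and on treatment, and it passed the count minimum through the WT and treated libraries. Most of the calls were the adjoining bins 11 and 12 of Psph, which make up 1 exon. The exon lies at chr5:129776830-129776941 in GRCm38 on the minus strand, is 112 bp long and is annotated as UTR, 5′ of the coding bins of the gene.

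This Psph exon took 5.73%, 4.47% and 5.16% of the counts of the gene in WT gastrocnemius, 2.43%, 1.82% and 2.38% in HSA-LR and 5.0%, 5.26% and 4.99% in treated mice. In the quadriceps the shares were 5.72%, 4.10% and 5.44% in WT, 1.60%, 2.28% and 2.51% in HSA-LR and 6.07%, 4.73% and 4.69% in treated mice. Every HSA-LR mouse lay below every WT and every treated mouse in both muscles, and treated mice overlapped with WT mice. The group means were 5.12% ± 0.632, 2.21% ± 0.336 and 5.08% ± 0.155 (SD, n = 3) in the gastrocnemius and 5.08% ± 0.865, 2.13% ± 0.476 and 5.16% ± 0.784 in the quadriceps, in the order WT, HSA-LR and treated. Relative to the other bins of Psph, bin 12 fell in HSA-LR mice with a log2 fold change of -1.14 (adjusted P = 0.00504) in the gastrocnemius and -1.27 (adjusted P = 0.0110) in the quadriceps, and rose on treatment by 1.21 (adjusted P = 0.00452) and 1.27 (adjusted P = 0.0191). Bin 11 gave -1.27 (adjusted P = 0.00268) and -1.19 (adjusted P = 0.0846) against WT, and 1.12 (adjusted P = 0.0496) and 1.24 (adjusted P = 0.0843) on treatment. Bin 10 held 6.15% to 6.48% of the counts in WT gastrocnemius and 5.31% to 6.54% in HSA-LR, and bin 14 held 4.28% to 4.98% and 4.86% to 5.39%, so WT and HSA-LR mice overlapped in both of these nearby bins, while HSA-LR mice lay above treated mice in bin 14.

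Psph bin 12 lost its call in the gastrocnemius without HSA-LR mouse 2 (adjusted P up to 0.218) for HSA-LR against WT and without HSA-LR mouse 2 (adjusted P up to 0.273) for treated against HSA-LR. Its quadriceps calls were lost without WT mouse 1 or HSA-LR mouse 1 (adjusted P up to 0.246) against WT and without HSA-LR mouse 1 or Pip6a-PMO mouse 1 (adjusted P up to 0.472) on treatment. Bin 11 kept its call against WT in the gastrocnemius in all 9 fits that left out 1 mouse, and lost it without any HSA-LR mouse or Pip6a-PMO mouse 1 or 2 (adjusted P up to 0.550) on treatment there. In the quadriceps bin 11 lost its call without WT mouse 1 or 3, HSA-LR mouse 1 or 2 or Pip6a-PMO mouse 1 or 2 (adjusted P up to 0.98), and with limma voom (adjusted P up to 0.101) against WT and without HSA-LR mouse 1 or 2 or any Pip6a-PMO mouse (adjusted P up to 1.0) on treatment. The gene level of Psph was called in no comparison.

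**Figure D4:**
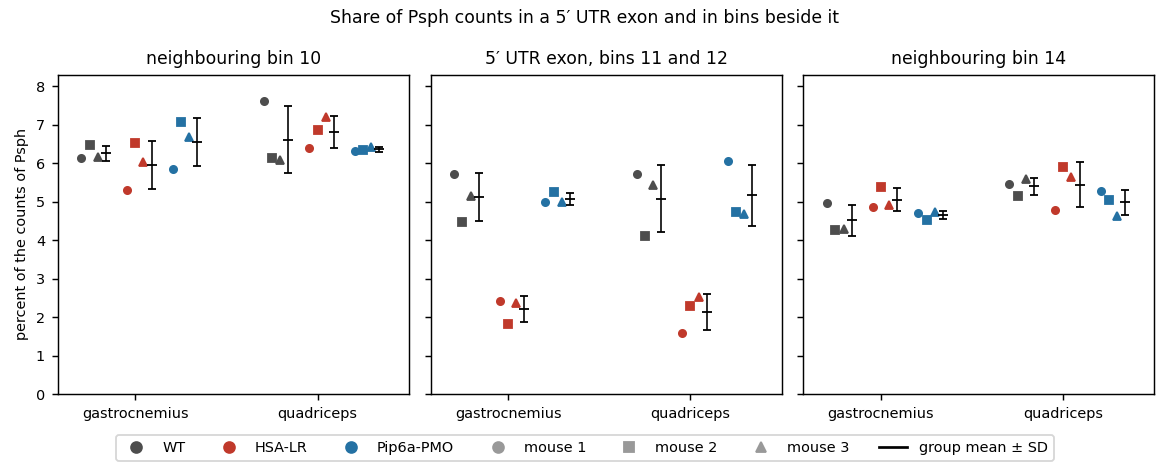
Share of the counts of Psph, in percent on the vertical axis, in the 5′ UTR exon (middle) and in the nearby bins 10 and 14, for each library by muscle and group, with the group mean ± SD. The HSA-LR mice sit between 1.60% and 2.51% for the exon, below all WT and treated mice, and overlap with WT mice for bins 10 and 14.

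Xbp1 bin 1 (chr11:5520659-5521004, plus strand, coding and UTR) was used less in the HSA-LR gastrocnemius, with -0.93 (adjusted P = 0.0481), but limma voom did not call it (adjusted P = 0.171) and the call was lost without WT mouse 3, HSA-LR mouse 2 or 3 or Pip6a-PMO mouse 1 (adjusted P up to 0.616). In the quadriceps the same bin gave -0.21 (adjusted P = 1.0). Eif2ak3 bin 6 (chr6:70864498-70864825, plus strand, coding and UTR) had 1 to 14 counts per quadriceps library. Its counts there were 13, 6 and 14 in WT, 1, 3 and 3 in HSA-LR and 9, 12 and 13 in treated mice, without overlap of HSA-LR with the others. In the gastrocnemius, where the bin was too low to test, they were 9, 11 and 18 in WT, 2, 2 and 2 in HSA-LR and 7, 3 and 7 in treated mice. In the quadriceps the bin passed the count minimum through the WT and treated libraries, and with so few HSA-LR counts the fold is not given. It was called lower against WT (adjusted P = 0.0644) and higher on treatment (adjusted P = 0.0910), calls lost without WT mouse 1 or 3, any HSA-LR mouse or Pip6a-PMO mouse 1 or 2 (adjusted P up to 0.645), and with limma voom (adjusted P up to 0.102) and without WT mouse 3, any HSA-LR mouse or any Pip6a-PMO mouse (adjusted P up to 0.891).

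The wider pathway was read from 4 lists of genes that are not members. The lists too were chosen with earlier results of these data known. Their shares and medians beside all genes are therefore descriptions and are not read as an excess. Of 29 other genes of the Atf4 and amino acid response tested in the gastrocnemius, 8 were lower and 0 higher in HSA-LR than in WT mice, and of 30 in the quadriceps 10 were lower and 1 higher. That is 27.6% and 36.7% called, against 15.5% and 20.3% of all genes, with 6.94% and 9.31% lower. On treatment 8 were higher and 0 lower in the gastrocnemius, and 8 were higher and 1 lower in the quadriceps, or 27.6% and 30% called against 10% and 13.8% of all genes, with 4.49% and 6.54% higher. The median log2 fold change of the list was -0.16 and -0.19 against WT and 0.27 and 0.22 on treatment, where the median over all genes lay between -0.01 and 0.01. Counts moved with single mice, from 4 to 10 lower in the HSA-LR gastrocnemius and from 1 to 13 higher on treatment in the quadriceps over the fits that left out 1 mouse. Gpt2, an alanine aminotransferase, read 299, 236 and 208 CPM in WT gastrocnemius, 113, 146 and 147 in HSA-LR and 206, 247 and 222 in treated mice, with HSA-LR below both. Its difference was -0.88 ± 0.16 (SE; adjusted P = 0.00857) against WT and 0.74 ± 0.16 (SE; adjusted P = 0.0289) on treatment, the latter lost without HSA-LR mouse 1 (adjusted P up to 0.116), and -0.69 (adjusted P = 0.00677) against WT in the quadriceps. Pycr1, which makes proline, read 5.41, 5.96 and 5.20 CPM in WT quadriceps, 2.44, 2.19 and 2.63 in HSA-LR and 3.86, 3.78 and 3.32 in treated mice, so treated mice lay between the others. Pycr1 fell in HSA-LR quadriceps with a log2 fold change of -1.18 ± 0.12 (SE; adjusted P = 0.000689), rose on treatment by 0.59 ± 0.12 (SE; adjusted P = 0.0279) and was below WT with a log2 fold change of -0.60 ± 0.12 (SE; adjusted P = 0.0782), the last of which was lost without any WT mouse, HSA-LR mouse 1 or 2 or any Pip6a-PMO mouse (adjusted P up to 0.233) and in 5 of the 8 other settings (adjusted P up to 0.267). The rise on treatment was lost with the slow fiber marker covariate (adjusted P up to 0.124).

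The tRNA ligases and most amino acid carriers went the same way where they were called, but the carrier Slc7a1 was the 1 gene of the list called higher in the HSA-LR quadriceps, and Nupr1 the 1 called lower on treatment there. Slc7a5, a carrier of large neutral amino acids, read 5.65, 3.28 and 4.29 CPM in WT quadriceps, 1.66, 1.71 and 1.66 in HSA-LR and 3.39, 3.42 and 2.29 in treated mice, and fell with a log2 fold change of -1.39 ± 0.22 (SE; adjusted P = 0.00507) in HSA-LR mice. Slc3a2, its partner chain, fell in the HSA-LR gastrocnemius with a log2 fold change of -0.43 ± 0.09 (SE; adjusted P = 0.0160), and the glycine tRNA ligase Gars with a log2 fold change of -0.38 ± 0.08 (SE; adjusted P = 0.0213). On treatment the cysteine ligase Cars rose in the gastrocnemius by 0.47 ± 0.09 (SE; adjusted P = 0.0188), and the tyrosine ligase Yars by 0.43 ± 0.08 (SE; adjusted P = 0.0205) there and 0.40 ± 0.09 (SE; adjusted P = 0.0309) in the quadriceps. The leucine ligase Lars rose in the treated quadriceps by 0.34 ± 0.09 (SE; adjusted P = 0.0490), a call lost without HSA-LR mouse 1 or 2 or any Pip6a-PMO mouse (adjusted P up to 0.163), and the quadriceps call of Yars was lost without HSA-LR mouse 1 or 2 (adjusted P up to 0.119), and with the slow fiber marker covariate (adjusted P up to 0.106).

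The list of ER folding and export genes was split in direction. Of 21 other ER folding and export genes, 1 was higher and 1 lower in the HSA-LR gastrocnemius, and 3 were higher and 1 lower in the quadriceps, with 1 higher and 1 lower and then 1 higher and 3 lower on treatment. The shares called, 9.52% and 19.0% against WT and 9.52% and 19.0% on treatment, lay below or near those of all genes in HSA-LR mice (15.5% and 20.3%) and on either side of them on treatment (10% and 13.8%). Sec63, a partner of the ER import channel, rose in HSA-LR mice by 0.43 ± 0.09 (SE; adjusted P = 0.0197) in the gastrocnemius and 0.50 ± 0.09 (SE; adjusted P = 0.00874) in the quadriceps. Ssr1, a subunit of the complex beside that channel, fell with a log2 fold change of -0.48 ± 0.09 (SE; adjusted P = 0.0127) and -0.38 ± 0.09 (SE; adjusted P = 0.0224). With the largest exon bin, Ssr1 was not called in any of its comparisons (adjusted P up to 0.782), nor was Sec63 in the gastrocnemius (adjusted P = 0.123). On treatment Ssr1 rose by 0.56 ± 0.09 (SE; adjusted P = 0.0137) and 0.41 ± 0.09 (SE; adjusted P = 0.0312), and Sec63 fell in the quadriceps with a log2 fold change of -0.37 ± 0.09 (SE; adjusted P = 0.0442). Sec61g, a subunit of the channel, fell in the treated quadriceps with a log2 fold change of -0.37 ± 0.10 (SE; adjusted P = 0.0638), and Txndc5, a disulfide isomerase, fell in the gastrocnemius with a log2 fold change of -0.48 ± 0.09 (SE; adjusted P = 0.0185). Ssr2 rose in the HSA-LR quadriceps by 0.32 ± 0.08 (SE; adjusted P = 0.0248). The calls in the treated quadriceps were lost without HSA-LR mouse 2 (adjusted P up to 0.105) for Ssr1, without HSA-LR mouse 1 or Pip6a-PMO mouse 1 or 2 (adjusted P up to 0.131), and with the slow fiber marker covariate (adjusted P up to 0.116) for Sec63 and without HSA-LR mouse 1 or 3 or Pip6a-PMO mouse 1 or 2 (adjusted P up to 0.181), and with the slow fiber marker covariate (adjusted P up to 0.267) for Sec61g.

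Of 14 other genes of ER-associated degradation, 2 were higher and 1 lower in the HSA-LR gastrocnemius and 3 were higher and 0 lower in the quadriceps. On treatment 2 were lower in the quadriceps, and none was called in the gastrocnemius. These made up 21.4% and 21.4% of the list against WT, where 15.5% and 20.3% of all genes were called, and 14.3% on treatment in the quadriceps, where 13.8% were. The gastrocnemius share against WT counts Derl3, which passed the count minimum through the transgenic groups. That share is therefore not read as an excess. Ube2j1, a ubiquitin-conjugating enzyme of the ER membrane, read 43.5, 40.9 and 37.1 CPM in WT quadriceps, 59.9, 59.3 and 61.8 in HSA-LR and 47.9, 53.5 and 47.0 in treated mice. Ube2j1 rose in HSA-LR mice by 0.58 ± 0.08 (SE; adjusted P = 0.00302) in the quadriceps and 0.51 ± 0.13 (SE; adjusted P = 0.0354) in the gastrocnemius, and fell on treatment in the quadriceps with a log2 fold change of -0.30 ± 0.08 (SE; adjusted P = 0.0671). Os9, a lectin that sorts misfolded glycoproteins, fell in the HSA-LR gastrocnemius with a log2 fold change of -0.36 ± 0.11 (SE; adjusted P = 0.0834), a call lost without any WT mouse, any HSA-LR mouse or Pip6a-PMO mouse 1 (adjusted P up to 0.244), and with upper-quartile normalization, with a minimum of 1 count in any library, with the largest exon bin of the gene or with the adipocyte marker covariate (adjusted P up to 0.325). Nploc4, a cofactor of the p97 ATPase that pulls proteins from the ER, rose in the HSA-LR quadriceps by 0.38 ± 0.11 (SE; adjusted P = 0.050), a call lost without WT mouse 1 or 3 or HSA-LR mouse 1 or 3 (adjusted P up to 0.150). Derl2, a channel-like protein of the same export route, rose in the HSA-LR quadriceps by 0.29 ± 0.07 (SE; adjusted P = 0.0279) and fell on treatment with a log2 fold change of -0.25 ± 0.07 (SE; adjusted P = 0.0711). Its relative Derl3 was called higher in the HSA-LR gastrocnemius but lay near 0, at 0.00819, 0.0217 and 0.0279 CPM in WT, 0.0926, 0.0692 and 0.212 in HSA-LR and 0.107, 0.153 and 0.0716 in treated mice, where a fitted fold depends on the prior count and is not given. Derl3 passed the count minimum through the transgenic groups, and its call was lost without HSA-LR mouse 3 (adjusted P up to 0.108), and with the adipocyte marker covariate (adjusted P up to 0.131). Against WT, the gastrocnemius call of Ube2j1 was lost without WT mouse 2 or HSA-LR mouse 2 or 3 and the quadriceps call of Derl2 without HSA-LR mouse 1, with adjusted P up to 0.131. The calls of Ube2j1 and Derl2 on treatment were each lost without 5 of the 9 mice, 1 at a time, with adjusted P up to 0.231, and with the largest exon bin neither gene was called in any of its comparisons.

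Of 20 other sensors and regulators, 2 were higher and 3 lower in the HSA-LR gastrocnemius and 2 were higher and 2 lower in the quadriceps, with 2 higher and 1 lower on treatment in each muscle. The shares called were 25% and 20% against WT and 15% in each muscle on treatment, beside 15.5% and 20.3%, and 10% and 13.8%, of all genes. Atf3, a stress-induced factor downstream of Atf4 that also answers many other signals, read 18.1, 16.6 and 38.5 CPM in WT gastrocnemius, 103, 72.0 and 63.3 in HSA-LR and 28.7, 13.1 and 15 in treated mice. In the quadriceps Atf3 read 23.0, 8.82 and 18.8 CPM in WT, 106, 30.3 and 65.9 in HSA-LR and 19.9, 12.1 and 15.7 in treated mice, so every HSA-LR mouse stood above all others in both muscles. Atf3 rose in HSA-LR mice by 1.69 ± 0.38 (SE; adjusted P = 0.0237) and 2.0 ± 0.47 (SE; adjusted P = 0.0235) and fell on treatment with a log2 fold change of -2.06 ± 0.39 (SE; adjusted P = 0.0208) and -2.09 ± 0.47 (SE; adjusted P = 0.0350), the last lost without HSA-LR mouse 1 or Pip6a-PMO mouse 2 (adjusted P up to 0.115), and with the slow fiber marker covariate (adjusted P up to 0.111) and the first lost with the adipocyte marker covariate (adjusted P up to 0.111). Cebpb, the partner of Atf4 at its element, read 9.01, 7.94 and 12.2 CPM in WT gastrocnemius, 5.97, 6.45 and 5.56 in HSA-LR and 12.6, 11.3 and 11.6 in treated mice, with HSA-LR below both. Cebpb fell in the HSA-LR gastrocnemius with a log2 fold change of -0.71 ± 0.15 (SE; adjusted P = 0.0189) and rose on treatment by 0.99 ± 0.15 (SE; adjusted P = 0.00985), calls that held in all 9 fits that left out 1 mouse, and rose by 0.69 ± 0.21 (SE; adjusted P = 0.0785) in the quadriceps, lost without any HSA-LR mouse or any Pip6a-PMO mouse (adjusted P up to 0.204), and with the slow fiber marker covariate (adjusted P up to 0.190). Creb3l2, an ER membrane factor related to Atf6, rose in the HSA-LR quadriceps by 0.59 ± 0.09 (SE; adjusted P = 0.00426) and stayed higher in treated than in WT quadriceps by 0.45 ± 0.09 (SE; adjusted P = 0.0788), the latter lost without WT mouse 1 or 2, HSA-LR mouse 1 or 2 or any Pip6a-PMO mouse (adjusted P up to 0.272). The call against WT in treated quadriceps held in only 3 of the 8 other settings (adjusted P up to 0.213). Tmbim6, an ER membrane protein that curbs Ern1 and cell death, was lower in the HSA-LR gastrocnemius, with -0.31 (adjusted P = 0.0287), lost without HSA-LR mouse 1 (adjusted P up to 0.110). Eif2s2, a subunit of eIF2, gave -0.36 (adjusted P = 0.0523) against WT in the quadriceps and 0.32 (adjusted P = 0.0877) on treatment in the gastrocnemius. Wfs1, which restrains ER stress signals, gave 0.76 (adjusted P = 0.0590) on treatment in the quadriceps, and each of these calls of Eif2s2 and Wfs1 was lost without 3 to 7 of the 9 mice (adjusted P up to 0.265).

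Treated against WT mice, the lists held 1 call higher (Creb3l2) and 1 lower (Pycr1), both in the quadriceps, and 0 in the gastrocnemius. Creb3l2 was 1 of 20 sensors and regulators tested there, and Pycr1 1 of 30 genes of the Atf4 and amino acid response. Of all genes, 1.41% were called in the quadriceps and 1.04% in the gastrocnemius. The differences between the muscles called 0 genes of the lists, as they called 0 of all genes.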

How the data were processed

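RNA was measured in the gastrocnemius and quadriceps of 9 mice. The authors sequenced stranded poly(A) libraries and deposited counts per exon bin on GRCm38 for each library, with reads that name no gene at 2.82% to 4.14% of all counts, which were left out. The submitters' processing notes list CASAVA, HISAT and featureCounts 1.5.0, without their roles. Bins of a gene were summed, and libraries held 98916844 to 143135976 counts, so that intervals are set by the spread of 3 mice. Each muscle was fitted with all 9 libraries in edgeR 4.0.16 (quasi-likelihood test, TMM normalization, filterByExpr with a minimum count of 10 and total of 15, R 4.3.3), with Benjamini-Hochberg adjustment over all genes and a threshold of 0.1. Differences between muscles came from a fit of all 18 libraries, and exon bins were tested with diffSpliceDGE. CPM used TMM factors over all 18 libraries, and no pseudocount was added.

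Members and lists were chosen with earlier results of these data known. Named were members called in any comparison, the central factors Hspa5, Eif2ak3, Ern1, Atf6, Xbp1, Atf4, Ddit3, Trib3, Fgf21 and Gdf15, members too low to test, up to 3 genes with the smallest P per other list and comparison, and up to 3 called bins per comparison. Replicates were separate mice. Equal replicate numbers did not pair mice within a muscle (median correlation of deviations -0.0646 in the gastrocnemius and 0.0575 in the quadriceps), whereas both muscles of a mouse carry its label (median 0.215, range 0.0645 to 0.511 over 9 mice). The tests were tested on simulated data of 15438 genes for HSA-LR against WT gastrocnemius with 200 genes changed 2-fold: edgeR recovered 62.5% with 6.72% false calls, and DESeq2 71% with 26.8%. Over 35025 bins, diffSpliceDGE recovered 52.5% of 200 with 12.5% false calls and limma voom 63% with 15.4%. Alternatives used DESeq2 1.42.0, limma 3.58.1, other filters, normalization, groups, gene counts and covariates, and each mouse left out. Figures used Python 3.11.15, pandas 2.3.3, numpy 2.4.6 and matplotlib 3.10.9. Rows of Hsp90b1, Pdia4 and Manf and of the list genes Ube2g2, Mbtps2, Cebpg and Aars were not analysed here. A gene of the degradation list is not reported here.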

Additional observations from a re-analysis of the deposited data

How the results depend on the processing

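Of the counts of members called in HSA-LR against WT gastrocnemius (7), the fit of the 2 groups alone gave 12, the slow fiber covariate 11 and the adipocyte covariate 4, both covariates being chosen after seeing the data. In treated against HSA-LR gastrocnemius (8), the 2 groups alone, the largest exon bin and the replicate block each gave 5. In treated against WT, DESeq2 called 2 members in the gastrocnemius (1 by edgeR) and 1 in the quadriceps (0), and the replicate block called 0 in the gastrocnemius. Over all genes DESeq2 called 529 and 748 in these muscles, against 163 and 219 by edgeR. For bins in treated against HSA-LR gastrocnemius (2), limma voom called 4, and over all bins it called 1051 where edgeR called 533. The causes were not tested, beyond the fewer libraries in fits that leave some out. Where no count over all genes is given, as with 1 mouse left out, a shift is not read as a result about the members.

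Leaving out 1 mouse at a time, the members called ranged from 2 to 10 in HSA-LR against WT gastrocnemius, 1 to 8 in treated against HSA-LR gastrocnemius, 0 to 2 in treated against WT gastrocnemius, 4 to 9 in HSA-LR against WT quadriceps, 2 to 12 in treated against HSA-LR quadriceps and 0 to 1 in treated against WT quadriceps. The tests of the difference between muscles and of the WT muscles stayed at 0. Member bins called ranged from 2 to 4 and 0 to 2 in the gastrocnemius and from 0 to 3 and 0 to 3 in the quadriceps, for HSA-LR against WT and treated against HSA-LR, and were 0 in treated against WT.

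With the replicate block, a pairing that the numbers do not carry within a muscle, 5, 5 and 0 members were called in the gastrocnemius and 6, 7 and 0 in the quadriceps, in the order HSA-LR against WT, treated against HSA-LR and treated against WT, with 3, 2 and 0 and then 2, 2 and 0 bins. With the mouse as the block, the tests between muscles and between WT muscles called 0, as without it.

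Direction turned in 16 cases, none called under the alternative. Ern1 on treatment in the gastrocnemius became 0.042 with the largest exon bin and 0.047 with the adipocyte covariate, and ranged from -0.24 to 0.037 (treated mouse 3 left out) over the fits with 1 mouse left out. Eif2ak3 there became 0.0017 with that covariate and ranged from -0.089 to 0.0098 (HSA-LR mouse 3 left out). Asns in HSA-LR against WT quadriceps became -0.089 with the replicate block and ranged from -0.64 to 0.64, negative with WT mouse 2, WT mouse 3 or HSA-LR mouse 2 left out. On treatment in the quadriceps, Hspa5 became -0.14 with the slow fiber covariate and ranged from -0.035 (treated mouse 2 left out) to 0.19, and Ddit3 ranged from -0.32 to 0.00074 (HSA-LR mouse 1 left out). With the largest exon bin in the quadriceps, Ssr1 became 0.058 against WT and -0.053 on treatment, and Derl2 -0.15 and 0.17. All other values of named genes kept their direction. Over these values and the counts of calls other than those of members and member bins, 2459 stayed on the same side of the threshold or, for counts, within a ratio of 1.5. Another 325 values fell short of the threshold, 28 passed it, and 183 of these counts of calls, which have no direction, moved. Of the counts of members and member bins called, 156 stayed equal or within a ratio of 1.5 and 52 moved. Depth limits Fgf21, Gdf15, Slc7a11 and Trib3, and the 3 mice of a group limit the rest.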
